A study of Mus musculus with 6 samples.

Results

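Genes of the lysosome were examined in mesenchymal stem cells of mouse muscle kept in medium from senescent or control macrophages. The set holds 43 genes chosen by symbol, covering 13 proteases, 11 glycosidases, 5 sulfatases, 4 lipid enzymes, 3 luminal carriers or cofactors and 7 membrane proteins; the luminal carriers were set apart here from the other classes. The deposited table lists 42 of them among its 18124 genes, all 42 passed the filter on low counts, and 14644 genes were tested in all. Cathepsin S gene Ctss, a cysteine protease gene most used by antigen-presenting cells, is not listed in the table used here and has no value.

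The cells carried a Col1-GFP reporter, which marks collagen-producing cells by a fluorescent protein, and were sorted from quadriceps muscle of 6 male mice as reporter-positive and Sca-1-positive. They were expanded and used at passage 4, and the age of the mice and whether cells of different mice were pooled are not given. The senescent-medium libraries came from cells kept for 72 hours in medium of wild-type bone marrow macrophages that had been exposed to 300 µM hydrogen peroxide for 3 hours, exposed again 3 days later and then cultured for 14 days. The control libraries came from cells kept equally long in medium of macrophages without that exposure. Each medium was conditioned for 48 hours, repeat collections were pooled, and each group has 3 libraries. How long control macrophages were in culture is not given. Nothing in the labels ties the replicates to separate mice or separately made medium. The p-values therefore reflect variation among 3 libraries per group, which may be technical only.

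Lysosomes are acidic compartments in which proteins, sugar chains, lipids and sulfated matrix polymers are cut into units that the cell can reuse. Most of their enzymes are made in the endoplasmic reticulum, tagged with mannose 6-phosphate and carried to the lysosome by receptors, and membrane glycoproteins such as LAMP proteins line the compartment. Many of the genes are known targets of the transcription factor TFEB and its relatives, which bind an E-box called the CLEAR element. Stromal cells of muscle use lysosomes to take up and degrade collagen and other matrix, and a larger lysosomal compartment is a known trait of senescent cells.

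Library totals ran from 17228162 to 21659434 estimated counts. Levels are given as CPM, counts scaled to a common library size after TMM adjustment. All 8 markers of the sorted stromal cells were listed, and together they reached 13927 to 14463 CPM in senescent medium and 10689 to 10788 CPM in control medium. Most of that sum is Col1a1 and Col1a2, and the markers did not move together. Col1a1, Col1a2, Thy1, Cd34 and Dcn were called higher, while Pdgfra and Pdgfrb were called lower, with log2 fold changes of −0.29 ± 0.036 and −0.30 ± 0.034. Ly6a, which encodes Sca-1, had 1283, 1189 and 1231 CPM in senescent medium, against 1254, 1200.0 and 1165 CPM in control medium, and the ranges overlapped. Macrophages are rich in lysosomal transcripts, so their markers were examined as well. Of 21 macrophage markers 15 were not listed, among them Ptprc, Adgre1, Itgam, Spi1 and the C1q genes, and every listed gene has at least 10 counts summed over the 6 libraries. The 6 listed macrophage markers summed to 18.4 to 25.2 CPM in senescent medium and 19.1 to 22.2 CPM in control medium, with the control range inside that of senescent medium. Of the 4 that were tested, Lyz2 was called higher, Cd14 and Csf1r lower, and Cd68 neither. The libraries of Csf1r overlapped, and the number of macrophage markers called lower was 1 in place of 2 with DESeq2 and without senescent-medium replicate 2, senescent-medium replicate 3, control replicate 1 or control replicate 2. The 1 listed of 6 satellite cell and myoblast markers, Des, had 4.33 to 5.86 CPM in senescent medium and 1.41 to 1.89 CPM in control medium, and the 3 listed of 4 pericyte markers summed to 22.4 to 26.8 CPM in senescent medium and 10.8 to 17.0 CPM in control medium; for both the groups did not overlap. The pericyte sum is mostly Cspg4, which averaged 21.3 CPM in senescent medium and 10.8 CPM in control medium and was the only one of the 3 called. Rgs5 averaged 2.15 CPM in senescent medium and 2.76 CPM in control medium, and neither it nor Abcc9 passed; without senescent-medium replicate 3 there were 2 called higher. The 3 listed of 5 endothelial markers summed to 25.7 to 32.5 CPM in senescent medium and 23.5 to 26.0 CPM in control medium, with overlapping ranges. That sum is mostly Tek, which averaged 26.9 CPM in senescent medium and 23.8 CPM in control medium and did not pass. Kdr, at a mean of 1.68 CPM in senescent medium and 0.71 CPM in control medium, was called higher without overlap, and Pecam1 fell under the filter. The part of these markers in the lysosomal results was not tested.

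Promoter sequences of the set are shown first because the lysosomal E-box is the best known feature such genes share. RefSeq gives promoters (build GRCm38.p6, 250 bases before to 50 after each start) for 38 of the 43 genes. The full palindrome GTCACGTGAC, a form of the CLEAR element, stood in 0 of the 38 promoters, against 80 of 10300 genes tested with a promoter of that symbol (0.777%). Its shorter core CACGTG, shared with many other E-boxes and again the same on both strands, was searched as well. That core was chosen after a first look at the promoters. The core was found in 14 of the 38 promoters (36.8%), against 1216 of the 10300 genes tested (11.8%) and 2187 of 27025 genes in RefSeq (8.09%). A core with T before and A after it, closer to the full element, stood in 5 of the 38 (13.2%), against 2.17% of the genes tested. The full palindrome is so rare among the genes tested that 38 promoters are too few to set against its share. A match describes letters and is not a binding site.

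Stretches around the core are given for the 5 genes with the flanked core, for Lamp1 with the most cores, for Naglu with the largest rise among the 14, and for Lgmn, which did not pass the test. Capitals mark the core.
Ctsa (chr2:164833751-164833793, plus strand): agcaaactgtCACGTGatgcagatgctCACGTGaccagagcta
Ctsd (chr7:142387910-142387935, minus strand): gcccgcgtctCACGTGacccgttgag
Ctsd (chr7:142388057-142388077, minus strand): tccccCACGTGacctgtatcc
Gla (chrX:134601184-134601242, minus strand): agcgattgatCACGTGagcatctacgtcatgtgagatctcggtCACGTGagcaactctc
Mcoln1 (chr8:3500438-3500489, plus strand): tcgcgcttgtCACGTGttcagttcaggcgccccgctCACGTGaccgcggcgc
Dpp7 (chr2:25356390-25356415, minus strand): gccagactatCACGTGatgctgcccc
Lamp1 (chr8:13159090-13159161, plus strand): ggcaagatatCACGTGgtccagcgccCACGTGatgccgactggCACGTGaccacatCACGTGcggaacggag
Naglu (chr11:101070011-101070036, plus strand): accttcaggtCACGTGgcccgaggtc
Lgmn (chr12:102439126-102439151, minus strand): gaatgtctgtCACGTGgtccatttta

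Lamp1 held 4 cores in 1 stretch, and Ctsa, Gla and Mcoln1 held 2 cores each in 1 stretch. For contrast, the promoter of Ctsk, the gene with the largest change of the set, held no core in the window. Its 250 bases before the start are shown.
Ctsk (chr3:95498960-95499209, plus strand): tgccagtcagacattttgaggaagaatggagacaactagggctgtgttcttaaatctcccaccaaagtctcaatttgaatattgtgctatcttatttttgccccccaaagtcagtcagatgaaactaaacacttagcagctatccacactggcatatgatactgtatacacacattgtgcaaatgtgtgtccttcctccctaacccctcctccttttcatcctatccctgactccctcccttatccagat

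Genes with and without the core were both mostly called higher. Of the 14 with a core, 11 were called higher and 3 did not pass the test, with a median log2 fold change of 0.25. Of the 23 tested genes with a promoter and no core, 19 were called higher, 1 lower and 3 did not pass, with a median of 0.39. These counts are to be read beside 24.6% of all genes tested called higher. Among tested genes with a promoter 2650 of 10300 were called higher, and among those with the core 359 of 1216. The difference between genes of the set with and without the core was not tested.

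Most lysosomal genes were modestly higher in cells kept in senescent macrophage medium. Of the 42 tested, 33 (78.6%) were called higher and 1 lower, and 8 did not pass the test (quasi-likelihood F-test of edgeR, p-values adjusted by Benjamini-Hochberg over 14644 genes). Of all genes tested, 49.5% were called in either direction, 24.6% higher and 24.9% lower. These shares were not matched for level. Ctso, the lowest of the set in control medium, averaged 15.3 CPM there, while tested genes outside the set include Acp5 at 0.96 CPM. Library totals alone as the scale gave 29 genes of the set higher and 2 lower, beside 2589 of all genes higher and 4813 lower in place of 3607 and 3644. The median log2 fold change, senescent over control medium, was 0.33 in the set and −0.00096 over all genes tested. CPM values did not overlap between media for 35 of the 42 in the higher direction, against 27.8% of all genes, and for 1 in the lower direction, against 28.0%. Class counts below are to be read beside these shares, and classes of 5 genes or fewer are too small to set against them.

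The changes were small in size. At least 1.5-fold rises were called for 6 of the 42 (14.3%), against 6.69% of all genes, and these were Ctsk, Ctso, Tpp1, Naglu, Hexa and Gla. A rise of at least 2-fold was called for Ctsk alone, 2.38% of the set against 2.63% of all genes. Summed over the set the level was 11923 ± 258 CPM in senescent medium and 9289 ± 178 CPM in control medium (SD, n = 3 each). In bulk RNA a change in the share of a kind of cell and a change in RNA per cell cannot be told apart. Senescent-medium replicate 3 had the lowest level of its group for 29 of the 42 genes and control replicate 1 the highest of its group for 29. Without these libraries in turn, 33 and 34 genes were called higher.

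**Figure D1:**
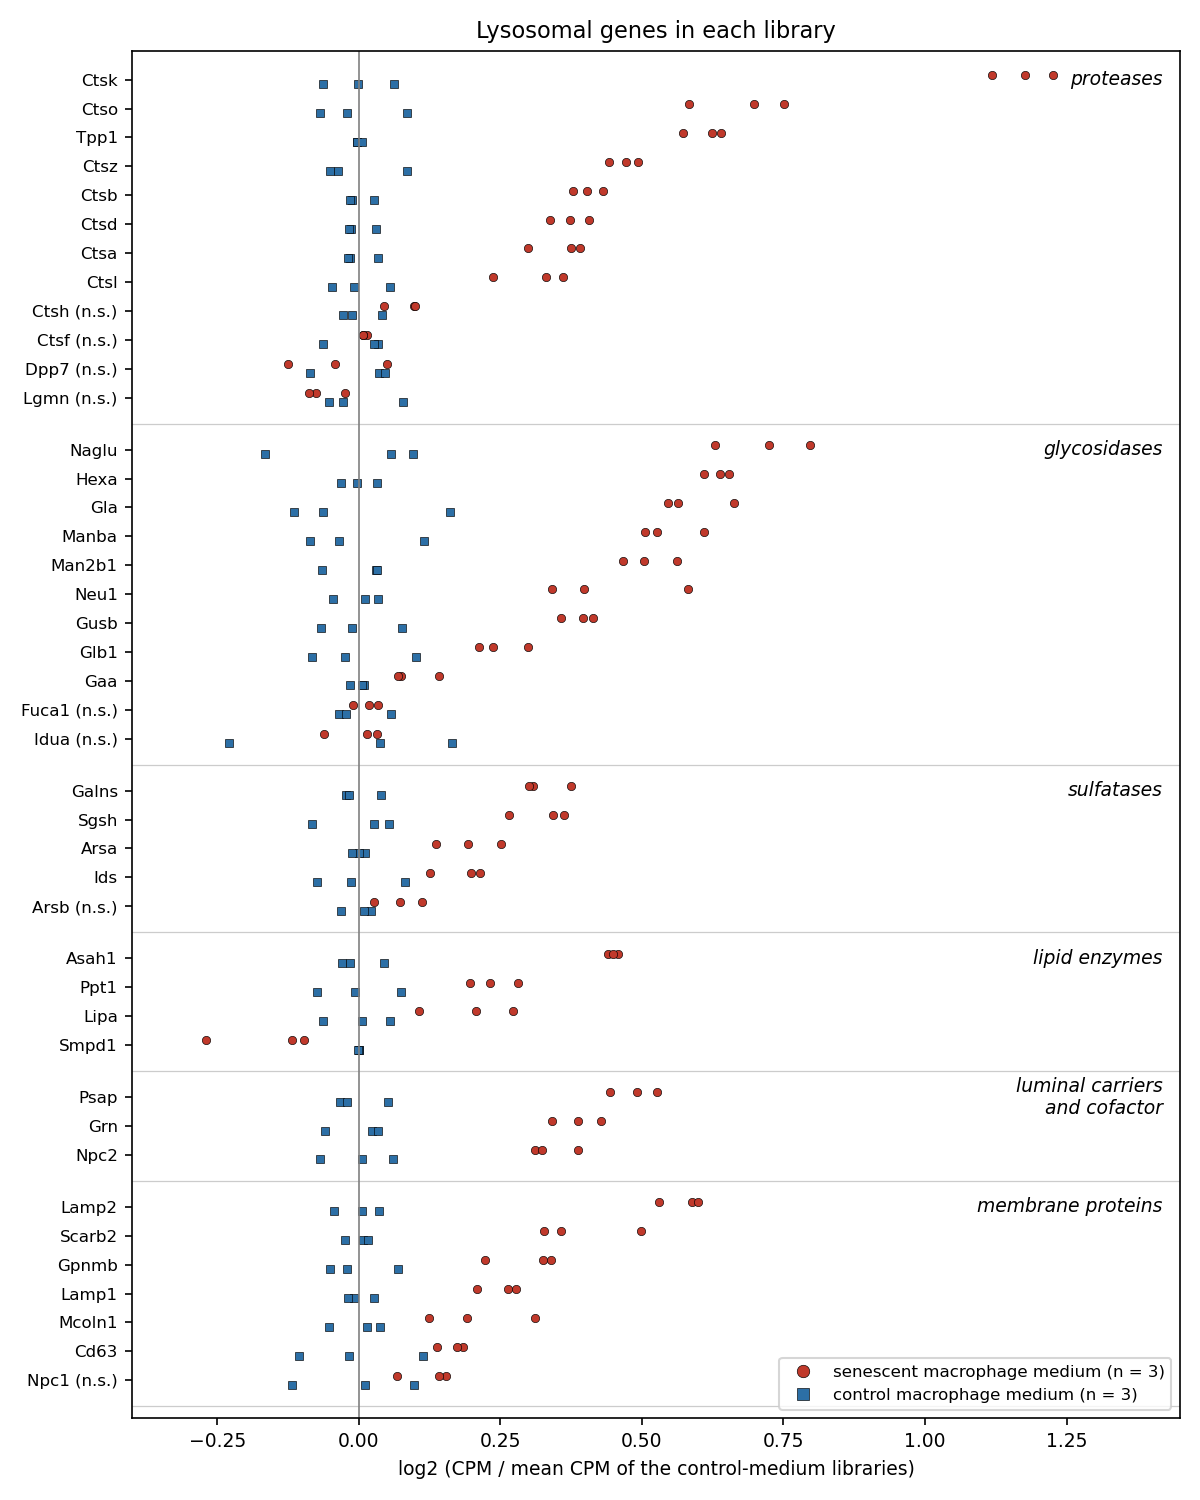
Level of each of the 42 lysosomal genes in each library, as log2 of CPM over the mean CPM of the control-medium libraries; red circles are the 3 senescent-medium libraries, blue squares the 3 control-medium libraries, and n.s. marks the 8 genes with an adjusted p of 0.05 or more. The red points of 33 called genes lie right of zero, Ctsk farthest, and those of Smpd1 left of it.

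Levels can be compared between genes only per length, here as CPM per kb of merged exon length in GENCODE M21, which overstates the length of any single transcript. On that scale Ctsd, the main aspartic protease of lysosomes, stood highest, with 687 CPM per kb in senescent medium and 531 CPM per kb in control medium. Psap, the precursor of the saposins that help break down sphingolipids, reached 570.4 CPM per kb in senescent medium and 407 CPM per kb in control medium. Lamp1, a major glycoprotein of the lysosomal membrane, reached 487 CPM per kb in senescent medium and 409.9 CPM per kb in control medium. At the low end stood Ctso, a little-studied cysteine cathepsin gene, with 4.78 CPM per kb in senescent medium and 2.98 CPM per kb in control medium, and Idua, with 4.26 CPM per kb in senescent medium and 4.27 CPM per kb in control medium. Ctso was the lowest in control medium and Idua in senescent medium. High and low genes alike were among those called higher, but the genes that did not pass were not spread evenly. The highest of them in control medium was Lgmn, with 46.1 CPM per kb, and every gene above that level was called higher.

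**Figure D2:**
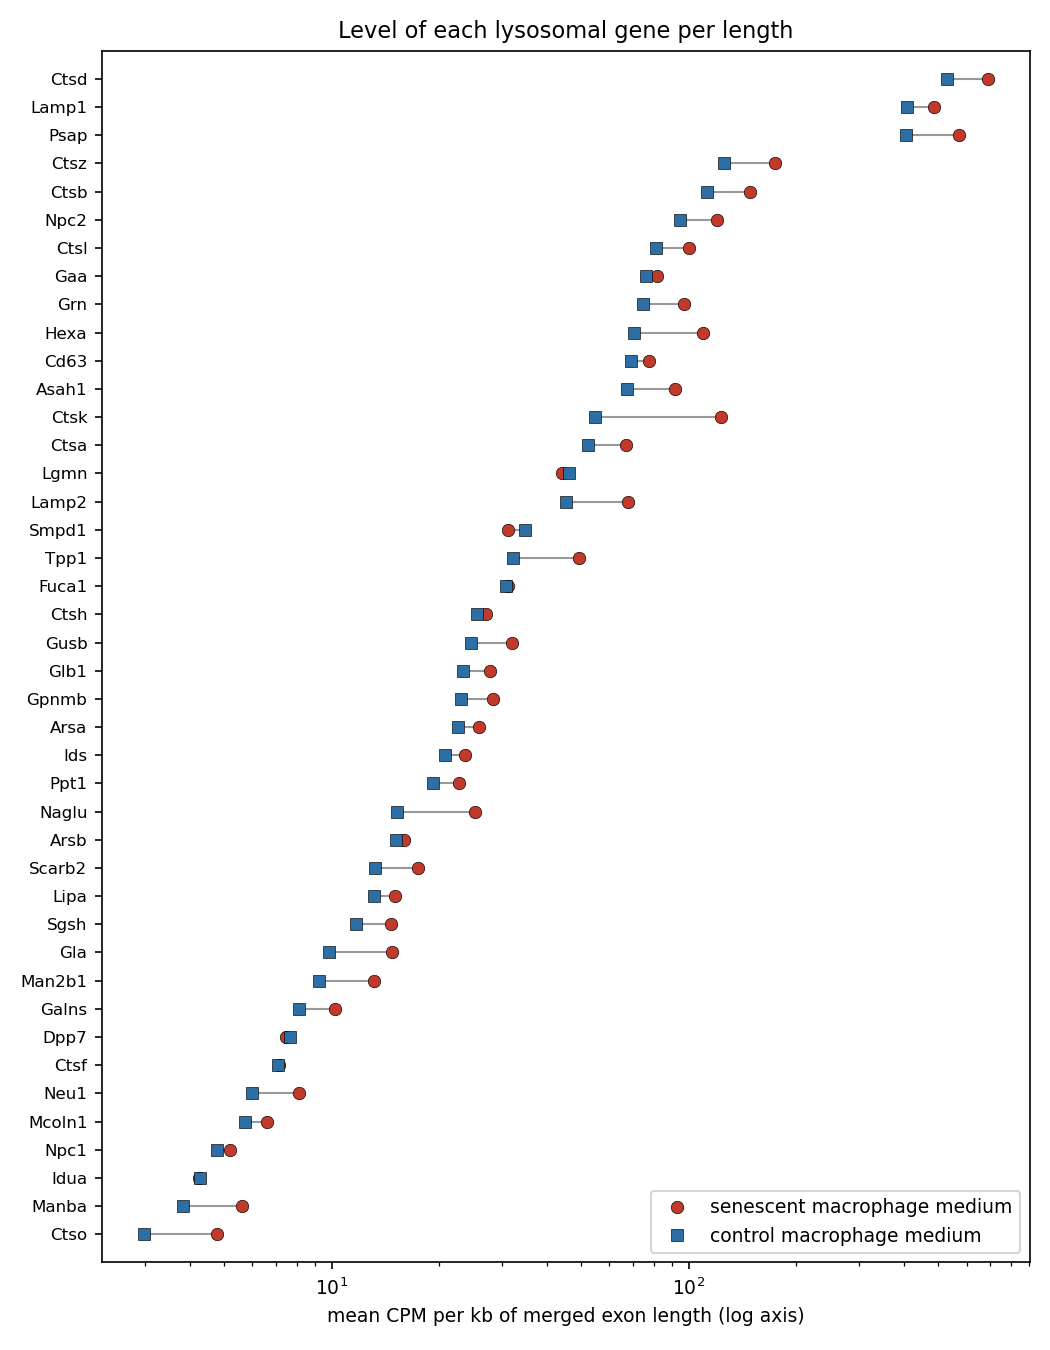
Mean CPM per kb of merged exon length (log axis) of the 42 lysosomal genes, ordered by their level in control medium; red circles are means of the 3 senescent-medium libraries and blue squares means of the 3 control-medium libraries. Ctsd, Lamp1 and Psap stand apart at the top, and the longest line joins the points of Ctsk.

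Among the proteases, 8 of 12 tested were called higher and none lower, with a median log2 fold change of 0.36. Their summed level was 4481 ± 107 CPM in senescent medium and 3426 ± 79.0 CPM in control medium (SD, n = 3 each). Cathepsin K gene Ctsk (ENSMUSG00000028111), a cysteine protease that cleaves fibrillar collagen and is best known from osteoclasts, had 187, 193 and 179 CPM in senescent medium, against 86.2, 82.4 and 79.0 CPM in control medium. Each senescent-medium library was more than 2-fold above each control library, and the log2 fold change was 1.17 ± 0.042 (adjusted p = 2.71e-20). Tpp1 (ENSMUSG00000030894), which removes tripeptides from the ends of proteins, had 259, 256 and 247 CPM in senescent medium, against 166, 166 and 167 CPM in control medium. Its control libraries lay within 1 CPM of each other, and the log2 fold change was 0.61 ± 0.036 (adjusted p = 3.10e-15). Cathepsin B gene Ctsb (ENSMUSG00000021939), an abundant cysteine protease, had 918, 900.2 and 885 CPM in senescent medium, against 693, 675 and 673 CPM in control medium, a log2 fold change of 0.40 ± 0.032 (adjusted p = 5.40e-12). Cathepsin Z gene Ctsz (ENSMUSG00000016256), a carboxypeptidase, had 252, 255 and 247 CPM in senescent medium, against 192, 177 and 175 CPM in control medium, a log2 fold change of 0.47 ± 0.038 (adjusted p = 8.57e-12). For all of these the groups did not overlap.

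The other 4 called proteases had log2 fold changes from 0.31 for the endopeptidase cathepsin L gene Ctsl to 0.68 for Ctso. Between them stood Ctsa, a serine carboxypeptidase that also shields sialidase and beta-galactosidase in a complex, at 0.36 ± 0.035, and Ctsd at 0.37 ± 0.032. In GENCODE M21 exons of Ctsb, Ctsa and Ctsl are overlapped over 12.8%, 10.5% and 26.8% of their length by Fdft1, Pltp and an antisense gene on the opposite strand, and those of Ctsd over 34.4% by a predicted gene on the same strand. Reads could be shared between such genes, on opposite strands only if strand was not used.

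The 4 remaining proteases did not pass the test. Cathepsin H gene Ctsh, an aminopeptidase, had 123, 123 and 118 CPM in senescent medium, against 118, 113 and 114 CPM in control medium. Those values did not overlap, yet the log2 fold change was 0.081 ± 0.040 (adjusted p = 0.0974); without control replicate 1 it passed (adjusted p = 0.0418, edgeR). Legumain gene Lgmn, which cuts after asparagine and matures other cathepsins, had 102, 105 and 101 CPM in senescent medium, against 113, 103 and 105 CPM in control medium, with overlap and a log2 fold change of −0.062 ± 0.044 (adjusted p = 0.251). With library totals as the scale Lgmn passed as lower (log2 fold change −0.14, adjusted p = 0.00771). Dpp7, a dipeptidyl peptidase, had 23.4, 24.8 and 26.4 CPM in senescent medium, against 26.1, 24.0 and 26.3 CPM in control medium. Its groups overlapped, with a log2 fold change of −0.035 ± 0.073 (adjusted p = 0.722). Cathepsin F gene Ctsf had 36.1, 35.9 and 35.9 CPM in senescent medium, against 36.6, 34.2 and 36.4 CPM in control medium, again with overlap and a log2 fold change of 0.012 ± 0.060 (adjusted p = 0.889), which was −0.069 with library totals.

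Glycosidases, which trim sugars from glycoproteins, glycolipids and matrix chains, were called higher in 9 of 11 cases and never lower, with a median log2 fold change of 0.44. Their summed level was 1246 ± 20.9 CPM in senescent medium and 1001 ± 23.4 CPM in control medium (SD, n = 3 each). Hexa (ENSMUSG00000025232), the alpha subunit of beta-hexosaminidase, had 221, 215 and 219 CPM in senescent medium, against 144, 138 and 140.4 CPM in control medium. The groups were far apart relative to their spread, and the log2 fold change was 0.63 ± 0.037 (adjusted p = 2.84e-15); 12.8% of its exon length is overlapped by Tmem202 on the opposite strand. Man2b1 (ENSMUSG00000005142), an alpha-mannosidase of glycoprotein breakdown, had 105, 109 and 102 CPM in senescent medium, against 75.4, 70.6 and 75.5 CPM in control medium, a log2 fold change of 0.51 ± 0.045 (adjusted p = 5.15e-11). Naglu (ENSMUSG00000001751), which removes N-acetylglucosamine from heparan sulfate, had 67.1, 70.5 and 62.8 CPM in senescent medium, against 43.4, 36.2 and 42.2 CPM in control medium. Its log2 fold change of 0.72 ± 0.062 (adjusted p = 1.42e-10) was the largest of the class. The beta-glucuronidase gene Gusb (ENSMUSG00000025534), at times used as a reference gene in expression assays, had 147, 143 and 148 CPM in senescent medium, against 117, 106 and 110.4 CPM in control medium, a log2 fold change of 0.39 ± 0.042 (adjusted p = 2.87e-09). In each of the 4 genes the groups did not overlap.

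Smaller and larger rises made up the rest of the class. The alpha-galactosidase gene Gla, the beta-mannosidase gene Manba and the sialidase gene Neu1 changed by 0.59 ± 0.066, 0.55 ± 0.066 and 0.44 ± 0.073 on the log2 scale. Glb1, the beta-galactosidase behind the classical staining of senescent cells, had 81.3, 86.3 and 82.7 CPM in senescent medium, against 66.3, 69.0 and 75.3 CPM in control medium. These did not overlap, and the log2 fold change was 0.25 ± 0.049 (adjusted p = 8.82e-05). Gaa, which degrades glycogen, had 383, 402 and 382 CPM in senescent medium, against 367, 360.2 and 366 CPM in control medium. Its rise was the smallest that passed, 0.095 ± 0.034 (adjusted p = 0.0196), and it missed the threshold with library totals (log2 fold change 0.014, adjusted p = 0.753), without senescent-medium replicate 2 (adjusted p = 0.140, edgeR) and without control replicate 2 (adjusted p = 0.0682, edgeR).

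Fucosidase and iduronidase genes did not pass. Fuca1, which removes fucose, had 102, 103 and 100.2 CPM in senescent medium, against 105, 98.5 and 99.4 CPM in control medium, with a log2 fold change of 0.014 ± 0.042 (adjusted p = 0.807) that was −0.067 with library totals. Idua, which acts on heparan and dermatan sulfate, had 18.1, 18.4 and 17.2 CPM in senescent medium, against 15.3, 18.4 and 20.1 CPM in control medium, with a log2 fold change of −0.0066 ± 0.090 (adjusted p = 0.958). In both the groups overlapped, and for Idua the control libraries spread more widely than the senescent-medium ones.

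All 5 sulfatases, which remove sulfate from matrix chains and sphingolipids, had higher CPM in every senescent-medium library than in any control library, and 4 were called higher. Among all genes 27.8% did not overlap in the higher direction and 24.6% were called higher, shares for which 5 genes are few. The median log2 fold change of 0.19 was the smallest of the classes; differences between classes were not tested. The summed level was 403 ± 7.65 CPM in senescent medium and 354 ± 6.58 CPM in control medium (SD, n = 3 each). Sgsh (ENSMUSG00000005043), the sulfamidase of heparan sulfate, had 65.4, 62.0 and 66.3 CPM in senescent medium, against 53.5, 48.7 and 52.5 CPM in control medium, a log2 fold change of 0.33 ± 0.052 (adjusted p = 4.58e-06). Galns (ENSMUSG00000015027), which acts on keratan and chondroitin sulfate of cartilage and other matrix, had 27.9, 26.6 and 26.5 CPM in senescent medium, against 22.1, 21.2 and 21.3 CPM in control medium. Though low in level, it changed by 0.33 ± 0.071 (adjusted p = 2.56e-04).

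Arsa (ENSMUSG00000022620), which degrades sulfatide, had 98.7, 91.2 and 94.8 CPM in senescent medium, against 83.7, 83.0 and 82.3 CPM in control medium, a log2 fold change of 0.19 ± 0.044 (adjusted p = 4.68e-04). The iduronate sulfatase gene Ids (ENSMUSG00000035847) had 123, 122 and 116 CPM in senescent medium, against 101, 105 and 112 CPM in control medium, a log2 fold change of 0.18 ± 0.044 (adjusted p = 0.00102) that missed the threshold with library totals (0.099, adjusted p = 0.0604). Arsb, which acts on dermatan and chondroitin sulfate, had 96.4, 98.9 and 93.4 CPM in senescent medium, against 93.0, 89.6 and 92.2 CPM in control medium. The gap between its groups was under 1 CPM and the log2 fold change of 0.071 ± 0.043 (adjusted p = 0.174) did not pass, and it was −0.010 with library totals. Exons of Arsa, Arsb and Sgsh are overlapped over 18.8%, 32.3% and 21.6% of their length by genes on the opposite strand.

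**Figure D3:**
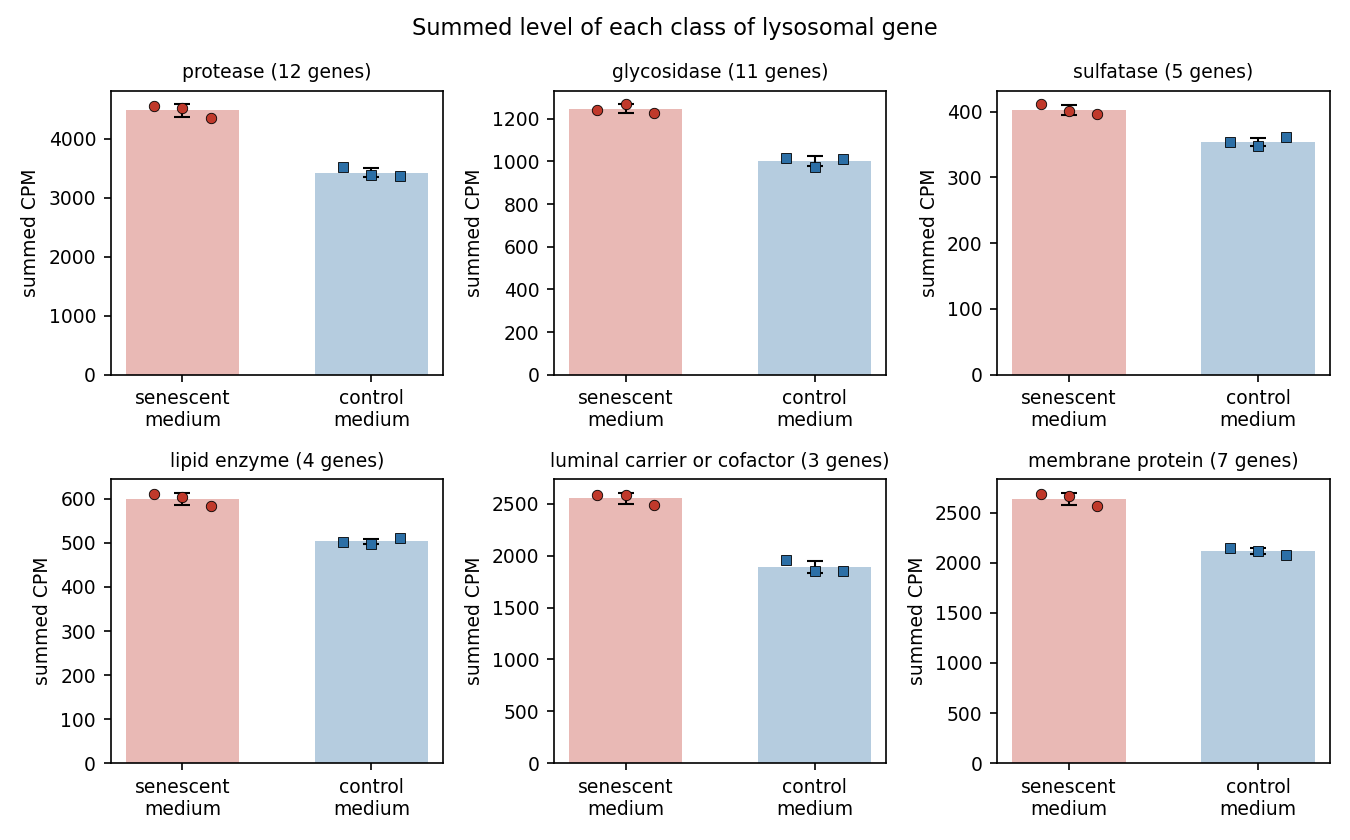
Summed CPM of the tested genes of each class; bars are means of 3 libraries, whiskers are ± SD and points are libraries, with senescent medium in red on the left and control medium in blue on the right of each panel. The senescent-medium points lie above the control points in all 6 classes, by the largest ratio of means (1.35) in the luminal carriers and cofactor and the smallest (1.14) in the sulfatases.

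Of the 4 lipid enzymes 3 were called higher and 1 lower, with a summed level of 599.9 ± 14.4 CPM in senescent medium and 503 ± 6.38 CPM in control medium (SD, n = 3 each). Asah1 (ENSMUSG00000031591), acid ceramidase, had 313, 309 and 311 CPM in senescent medium, against 223, 225 and 235 CPM in control medium. The groups were far apart and the log2 fold change was 0.45 ± 0.035 (adjusted p = 2.29e-12). The palmitoyl-protein thioesterase gene Ppt1 (ENSMUSG00000028657), which strips fatty acids from proteins, had 83.1, 86.0 and 81.1 CPM in senescent medium, against 70.5, 67.3 and 74.6 CPM in control medium, a log2 fold change of 0.24 ± 0.048 (adjusted p = 1.12e-04). Lipa (ENSMUSG00000024781), the acid lipase that frees cholesterol and fatty acids from lipoprotein lipids, had 107, 103 and 95.6 CPM in senescent medium, against 92.3, 89.2 and 85.0 CPM in control medium. Its groups did not overlap, and the log2 fold change was 0.20 ± 0.047 (adjusted p = 8.16e-04).

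Smpd1 (ENSMUSG00000037049), acid sphingomyelinase, was the only gene of the set called lower with TMM scaling. It had 108, 107 and 96.2 CPM in senescent medium, against 116, 116 and 116 CPM in control medium. The control libraries lay within 1 CPM of each other and above all senescent-medium libraries, of which replicate 3 was the lowest. The log2 fold change was −0.16 ± 0.044 (adjusted p = 0.00343), and without senescent-medium replicate 3 it missed the threshold (−0.11, adjusted p = 0.0615, edgeR). The products of Smpd1 and then Asah1 act in sequence in the breakdown of sphingomyelin through ceramide.

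Each of the 3 luminal carriers and cofactors was called higher, with a median log2 fold change of 0.39. Their summed level was 2554 ± 55.2 CPM in senescent medium and 1889 ± 57.7 CPM in control medium (SD, n = 3 each). Psap (ENSMUSG00000004207) had 1569, 1607 and 1519 CPM in senescent medium, against 1157, 1091 and 1101 CPM in control medium. Its log2 fold change was 0.49 ± 0.034 (adjusted p = 1.74e-13). The progranulin gene Grn (ENSMUSG00000034708), whose product is secreted and also cut into granulins in the lysosome, had 348, 339 and 328 CPM in senescent medium, against 263, 248 and 265 CPM in control medium, a log2 fold change of 0.39 ± 0.036 (adjusted p = 1.70e-10). Npc2 (ENSMUSG00000021242), a small protein that hands cholesterol to the membrane transporter Npc1, had 672, 638 and 644 CPM in senescent medium, against 536, 516 and 490.3 CPM in control medium. For none of these genes did the groups overlap, and the log2 fold change of Npc2 was 0.34 ± 0.036 (adjusted p = 1.81e-09).

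Of the 7 membrane protein genes, 6 were called higher and none lower, with a median log2 fold change of 0.25. Their summed level was 2638 ± 61.9 CPM in senescent medium and 2116 ± 33.9 CPM in control medium (SD, n = 3 each). Lamp2 (ENSMUSG00000016534), needed for fusion of lysosomes with autophagosomes and for chaperone-mediated autophagy, had 653, 658 and 627 CPM in senescent medium, against 421, 445 and 436 CPM in control medium. It had the largest log2 fold change of the class, 0.57 ± 0.034 (adjusted p = 4.80e-15). Its relative Lamp1 (ENSMUSG00000031447) had 1329, 1316 and 1267 CPM in senescent medium, against 1117, 1091 and 1083 CPM in control medium, a log2 fold change of 0.25 ± 0.032 (adjusted p = 1.25e-07). Scarb2 (ENSMUSG00000029426), the receptor that carries glucocerebrosidase to the lysosome, had 118, 107 and 104 CPM in senescent medium, against 83.7, 81.8 and 84.2 CPM in control medium, with a log2 fold change of 0.40 ± 0.046 (adjusted p = 1.61e-08). Gpnmb (ENSMUSG00000029816), a glycoprotein that rises in stressed lysosomes of macrophages, had 188, 190.3 and 176 CPM in senescent medium, against 158, 148 and 145 CPM in control medium. Its groups did not overlap, and its log2 fold change was 0.30 ± 0.041 (adjusted p = 3.76e-07).

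The tetraspanin gene Cd63 and the calcium channel gene Mcoln1 had the smallest rises among the called genes of the class, 0.17 ± 0.042 and 0.21 ± 0.058 on the log2 scale, and both missed the threshold with library totals (adjusted p = 0.110 and 0.0635, edgeR). Npc1, which moves cholesterol out of the lysosome, had 56.7, 60.2 and 59.7 CPM in senescent medium, against 49.9, 57.9 and 54.6 CPM in control medium. The groups overlapped and the log2 fold change of 0.12 ± 0.055 (adjusted p = 0.075) did not pass, though it did without control replicate 2 (adjusted p = 0.0213, edgeR).

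**Figure D4:**
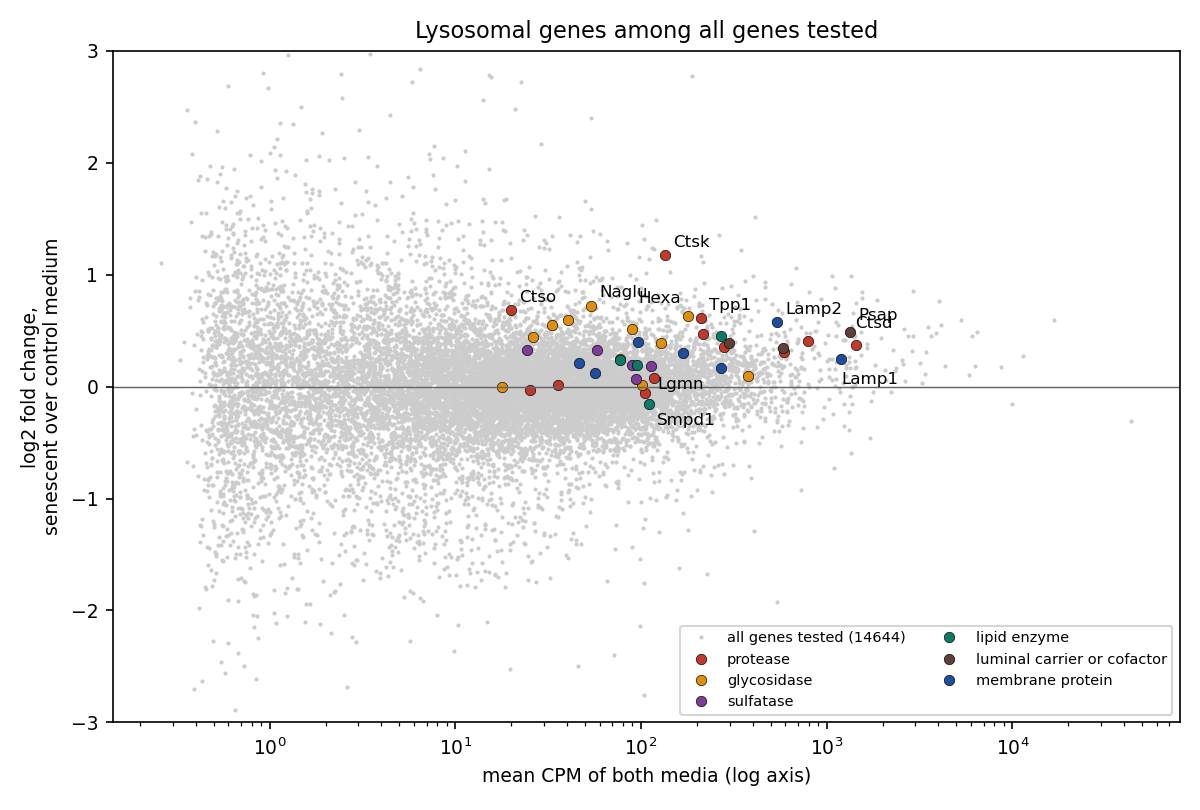
Log2 fold change, senescent over control medium, against mean CPM of both media (log axis) for the 14644 genes tested (grey; 15 lie outside the axis limits of ±3) and the 42 lysosomal genes coloured by class. The lysosomal genes lie mostly between 0 and 0.75, with Ctsk above them at 1.17 and Smpd1 below zero.

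Lysosomal genes outside the set were examined from lists drawn up with earlier results of these data known. These lists are to be read beside 24.6% of all genes called higher and 24.9% lower. Of 28 tested other hydrolases and their cofactors, 16 were called higher (57.1%) and 3 lower, with a median log2 fold change of 0.19. Creg1, a secreted and lysosomal glycoprotein, had 73.7, 72.3 and 70.7 CPM in senescent medium, against 39.3, 38.9 and 34.2 CPM in control medium, a log2 fold change of 0.95 ± 0.056 (adjusted p = 3.69e-15). Of 30 tested other membrane proteins, 14 were called higher (46.7%) and 3 lower, with a median of 0.12; with library totals 5 were lower. Tpcn1, a cation channel, had 51.8, 50.5 and 46.5 CPM in senescent medium, against 27.8, 23.2 and 22.3 CPM in control medium, a log2 fold change of 1.02 ± 0.071 (adjusted p = 9.37e-13). The nucleoside transporter gene Slc29a3 changed by 0.46 ± 0.044 (adjusted p = 2.85e-10).

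Of the proton pump genes, whose products acidify the lysosome, 13 of 16 were called higher (81.2%) and 1 lower, with a median log2 fold change of 0.28. Atp6v1b2, a subunit that binds ATP, and Atp6v0a1, a membrane subunit, changed by 0.52 ± 0.043 and 0.45 ± 0.039 on the log2 scale. Of 10 genes that sort or mature lysosomal enzymes 4 were called higher (40.0%) and 1 lower. The mannose 6-phosphate receptor gene Igf2r, the adaptor genes Gga1 and Gga2 and the sulfatase-activating enzyme gene Sumf1 rose by 0.35, 0.47, 0.26 and 0.21 on the log2 scale. Gnptab, a subunit of the enzyme that makes the mannose 6-phosphate tag, fell by 0.19 on the log2 scale (adjusted p = 3.84e-04). Gnptg, M6pr, Gga3, Sort1 and Nagpa had log2 fold changes of 0.23, 0.069, 0.067, 0.056 and 0.031 and did not pass; Gnptg passed without control replicate 3 (adjusted p = 0.0495, edgeR) and with 4 other settings.

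Cystatins inhibit cysteine cathepsins, and 2 of 3 tested were called higher, too few to set against the share of all genes. Cst6 had 6.62, 7.51 and 5.91 CPM in senescent medium, against 2.48, 3.37 and 2.19 CPM in control medium, a log2 fold change of 1.30 ± 0.17 (adjusted p = 2.13e-07). The cytosolic inhibitor gene Cstb changed by 0.32 ± 0.049 (adjusted p = 1.73e-06), and the secreted cystatin C gene Cst3 by 0.070 ± 0.043 (adjusted p = 0.181), which among the alternatives run passed only without control replicate 1 (log2 fold change 0.12, edgeR).

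Genes of the transcription factors that drive lysosomal genes were not called higher. Tfeb had 5.62, 4.90 and 5.67 CPM in senescent medium, against 4.96, 7.20 and 4.67 CPM in control medium, with overlap and a log2 fold change of −0.067 ± 0.16 (adjusted p = 0.759), which was 0.17 without control replicate 2. Tfe3 had 64.4, 58.5 and 56.5 CPM in senescent medium, against 55.6, 57.8 and 56.8 CPM in control medium, with overlap and a log2 fold change of 0.076 ± 0.053 (adjusted p = 0.245). Mitf had 11.7, 15.5 and 14.8 CPM in senescent medium, against 15.8, 17.1 and 17.4 CPM in control medium, a log2 fold change of −0.26 ± 0.098 (adjusted p = 0.0268), called lower. In DESeq2 the adjusted p of Mitf was 0.0808. In edgeR it missed the threshold without senescent-medium replicate 1 (adjusted p = 0.245), control replicate 2 (0.0866) or control replicate 3 (0.0842). Tfec fell under the filter on low counts. These factors are controlled largely by their location in the cell, which RNA levels do not show.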

How the data were processed

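RNA of 6 libraries was read in pairs on an Illumina NovaSeq, per the labels' protocols. The deposited table gives, for each Ensembl gene, estimated counts without normalization. STAR, DESeq2 and the build mm39 appear in the submitters' processing notes, which state neither their order nor their use. Which tool counted the reads, with which annotation and strand setting, is not stated in the sources used here. Estimated counts were rounded to whole numbers.

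Symbols came from GENCODE M21 (build GRCm38) for 18092 of 18124 identifiers, and no coordinates of the deposited genes are given because the builds differ. Genes were tested in edgeR 4.0.16 (R 4.3.3) by its quasi-likelihood approach, two-sided, with robust dispersions, TMM scaling, edgeR's expression filter and the medium as the only term. Benjamini-Hochberg adjustment ran over all 14644 genes tested, with a threshold of 0.05. Log2 fold changes are senescent over control medium, ± their SE, taken as the absolute log2 fold change over the square root of F. Other ± values are SD. The procedure was also run on data simulated from the mean levels in these libraries, with the same dispersion for every gene. The outcome of that run is not reported here.

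The gene set, the lists and the rule for named genes were chosen with earlier results of these data known. The naming rule asked for values in every library for the 4 genes of each class with the smallest adjusted p, for every gene that fell or missed the threshold, for the sorting, cystatin and TFEB family genes in short form, and for the 2 leading genes of each other list; Glb1, Gaa, the genes of the closing observations and the promoter examples were added after their values were seen. The full CLEAR element had been planned for the promoter search, and the shorter cores were chosen after a first look at the promoters. Alternatives were DESeq2 1.42.0, limma-voom (limma 3.58.1), other scalings and filters, other thresholds, a replicate block and each library left out in turn. Protein sequences were not used here, and some genes outside the set that the rule would name are not reported here.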

Additional observations from a re-analysis of the deposited data

How the results depend on the processing

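Across all alternatives, 675 of the values of single genes of the set kept their direction and call, 22 lost a call, 6 gained one and 11 changed sign, none of the last being a called gene. Under a test against a 1.2-fold change, 20 genes of the set were higher and 0 lower, and of all genes 1457 were higher and 1491 lower. With library totals alone 2 genes of the set were lower, and the log2 fold changes of Ctsf, Ctsh, Fuca1 and Arsb were −0.069, −0.00034, −0.067 and −0.010. That scaling moved the median of all genes to −0.082 and that of the set to 0.25. With upper quartile scaling 35 genes of the set were higher and Idua stood at 0.013. Leaving out each library in turn gave 32 to 34 genes of the set higher and 0 to 1 lower, with 3198 to 3517 of all genes higher and 3179 to 3582 lower. Over these fits Idua ran from −0.11 to 0.076, Dpp7 from −0.080 to 0.0097, Ctsf from −0.021 to 0.027 and Fuca1 from −0.0040 to 0.040. For the named genes outside the set, 433 values kept direction and call, 11 lost a call, 6 gained one and 9 changed sign. With library totals M6pr, Nagpa, Sort1, Gga3, Cst3 and Tfe3 stood at −0.012, −0.050, −0.025, −0.014, −0.011 and −0.0050. Left-out libraries gave Nagpa from −0.037 to 0.086 and Tfeb from −0.18 to 0.17. Npc1 passed the threshold with upper quartile scaling, with the replicate block and without control replicate 2 (adjusted p = 0.0419, 0.0482 and 0.0213), and Ctsh passed with upper quartile scaling and without control replicate 1 (0.0354 and 0.0418). The cause was not tested.

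The replicate numbers share no stated source. The correlation of deviations between same-numbered libraries was 0.0187, 0.0019 and 0.0262, and not every library correlated best with its own number. With the replicate block 34 genes of the set were called higher and 1 lower, and 3704 and 3698 of all genes. The SE of the log2 fold change was 0.090 for Idua, with 15.3 to 20.1 CPM over its libraries, and 0.032 for Ctsb, with 673 to 918 CPM; how much of this is depth was not tested.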

Other observations

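Groups of enzymes that work on 1 substrate were looked at after their values had been seen, and carry no test of their own. In the breakdown of heparan sulfate, Naglu, Sgsh, Ids and Gusb of the set and Hgsnat outside it were called higher, with log2 fold changes of 0.72, 0.33, 0.18, 0.39 and 0.34, while Idua was at −0.0066. The partners of the complex of Ctsa, Neu1 and Glb1 changed by 0.36, 0.44 and 0.25.

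Some lysosomal genes outside the set moved the other way. Cln3, whose loss causes a childhood lysosomal disease, had 1.30, 1.49 and 2.93 CPM in senescent medium, against 5.80, 3.83 and 4.84 CPM in control medium, a log2 fold change of −1.32 ± 0.25 (adjusted p = 1.88e-04). Its estimated counts were low, from 27.3 to 103 per library, and exon overlaps were not examined for genes outside the set. The hyaluronidase gene Hyal2 changed by −0.46 ± 0.061 (adjusted p = 3.26e-07), the sulfatase gene Arsk by −0.58 ± 0.080 (adjusted p = 4.35e-07) and the thioesterase gene Ppt2, a relative of Ppt1, by −0.48 ± 0.069 (adjusted p = 8.14e-07). The proton pump gene Atp6v0a2, whose product serves mainly the Golgi, changed by −0.37 ± 0.041 (adjusted p = 7.05e-09), opposite in sign to Atp6v0a1.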
